A study of Homo sapiens
Mus musculus with 24 samples.

Results

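The mesenchymal list examined here holds 36 human genes, and 35 of them had a row among the 18880 genes of the human count table of 24 tumor libraries. TWIST2 had none. Members were taken by symbol and joined to the raw counts by Ensembl identifier. The list was chosen from measured values, since it was drawn up with earlier results of the human counts of these same libraries known. Which of those values decided the choice is not recorded. Levels, fold changes and counts of calls of the human members are therefore descriptions, and support nothing about the list as a whole. The rule for members names the human table alone, and whether murine values were also in view is not recorded.

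The tumors grew from MDA-MB-231 cells, a human triple-negative breast cancer line, injected subcutaneously with Matrigel and Collagen I at the neck base of female Rag1null mice on the B6 background aged 14 weeks, which lack mature T and B cells. CTRL (4 mice) were obese on a high-fat diet with weekly saline by intraperitoneal injection. Chemo (5 mice) received weekly doxorubicin and cyclophosphamide on that diet, MC (5 mice) received moringa concentrate in it, and MC + Chemo (6 mice) received both. The 4 Lean mice were fed a lean diet and had no intervention. Each library is a bulk 3′ RNA library of a single tumor and is called here by group and mouse number. The labels give 1 cell line for every tumor, so the replicates are mice and not independent tumor lines.

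Epithelial cells hold together through E-cadherin junctions. Cells that take on mesenchymal features lose these contacts, build vimentin filaments and fibronectin-rich matrix, and migrate more readily. Transcription factors of the ZEB, SNAI and TWIST families repress E-cadherin, and TGF-β is a known inducer of the switch. MDA-MB-231 is widely used as a line of mesenchymal character, with abundant vimentin and little or no E-cadherin.

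The human counts went against that description in most libraries, and 3 libraries stood apart. CDH1, which encodes E-cadherin, was at 2.73 normalized counts in CTRL 17, 312 in CTRL 44 and 633 in Lean 24, against 1656 to 4472 in the other 21. EPCAM, an epithelial adhesion molecule, was at 73.8, 552 and 1207, against 2411 to 5399. Of 30 epithelial genes, 28 lay more than 2-fold below their median over the libraries in CTRL 17, 27 in CTRL 44 and 18 in Lean 24, and at most 2 did in any other library. Their summed level ran from 21132 to 113371 in CTRL, 109613 to 142742 in Chemo, 94846 to 121718 in MC, 109311 to 186081 in MC + Chemo and 56337 to 118240 in Lean. OVOL1, OVOL2, RAB25 and PRSS8 were each at 0 in 1 library. The markers set as present in the line were found throughout: EGFR ran from 1212 to 3765, CD44 from 3783 to 5652 and CAV1 from 2771 to 7954. For CAV1 the ratio of human to murine counts, given further on, was even, so host transcript cannot be told apart in it. ESR1 ran from 2.59 to 88.3, ERBB2 from 192 to 769, and PGR was not among the genes of the table. Label and data therefore differ most clearly for CDH1 and EPCAM in 21 of 24 libraries. CTRL 44 and Lean 24 also held counts of both genes, at lower levels, and only CTRL 17 came near the description. The list is therefore described by its members rather than as the state of the cells. Whether every tumor held this line alone was not tested. Why CTRL 17, CTRL 44 and Lean 24 differ was not tested.

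Human counts per library ran from 7796231 to 17621273 and murine counts from 3664056 to 9892470, and human counts made up 47.8% (MC 41) to 74.0% (MC + Chemo 25) of both. The members took 0.799% to 1.48% of the human counts. No 2 libraries of a group were identical over 47 pairs. The deposited labels enter MC + Chemo 5 under MC in 1 field and under both treatments in its title, which was followed. An extra RNA cleanup on a column was given to MC 41, MC 42 and Lean 3. In bulk tumors, fewer cells of a kind and less RNA per cell cannot be told apart.

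**Figure D1:**
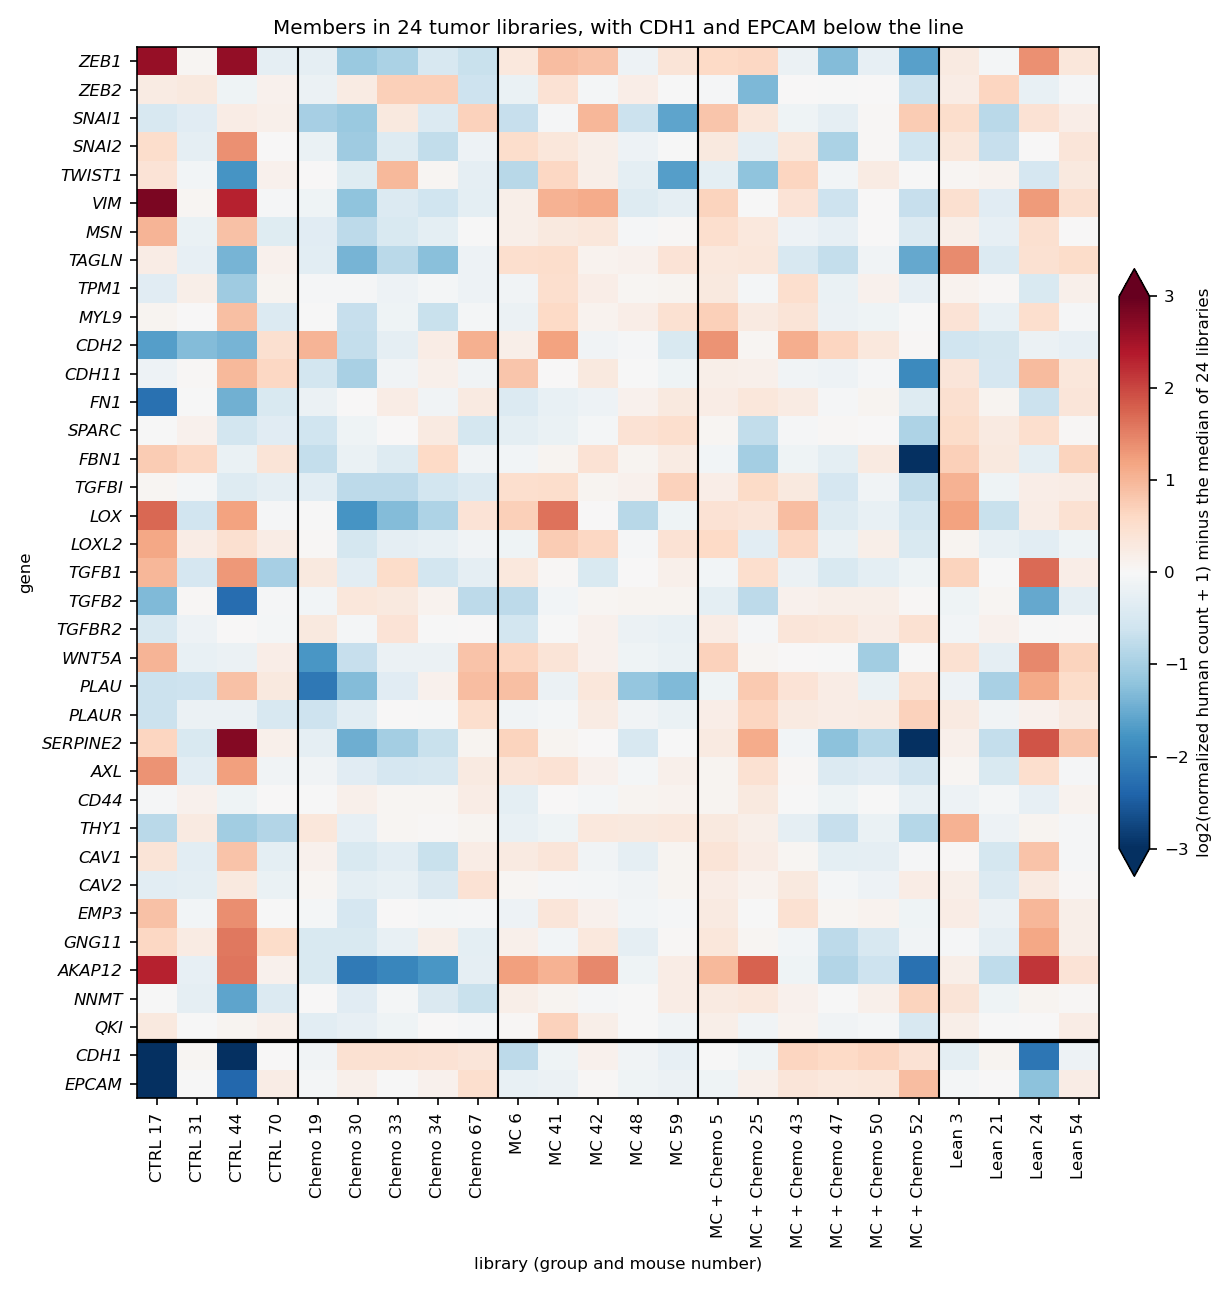
Heat map of the 35 members and, below the heavy line, CDH1 and EPCAM (rows) in 24 libraries (columns, split by group). Color is log2 of the normalized human count plus 1 minus the gene's median over the libraries, shown from -3 to 3. CTRL 17 and CTRL 44 are red for VIM, ZEB1, AXL, MSN and AKAP12 but blue for FN1, CDH2, CDH1 and EPCAM, and Lean 24 has part of the same pattern.

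The list did not move as 1 unit within CTRL. CTRL 17 and CTRL 44 were both above CTRL 31 and CTRL 70 for 14 of 35 members (40.0%, against 26.4% of 16588 tested genes) and both below them for 5 (14.3%, against 30.5%). The 14 were AKAP12, AXL, CAV1, EMP3, GNG11, LOX, LOXL2, MSN, MYL9, SERPINE2, SNAI2, TGFB1, VIM and ZEB1. The 5 were CD44, CDH2, FN1, TGFB2 and TPM1. For AKAP12, AXL, LOX, MSN, TGFB1, VIM and ZEB1 the gap was more than 2-fold for every pair of libraries, which held for 2.68% of all tested genes. TGFB2 alone was more than 2-fold lower in CTRL 17 and CTRL 44 for every pair (2.86%, against 9.16% of all tested genes). VIM, ZEB1, AXL and MSN were higher in these 2 libraries than in any of the other 22 (11.4%, against 7.43% of all tested genes). FN1 and CDH2 were lower than in any of the 22 (5.71%, against 9.59%). CAV1 and MSN have an even ratio of human to murine counts, given further on, so host transcript cannot be told apart in them. Of 33 members with a mean normalized count above 30, 23 (69.7%) had a highest CTRL library more than 2-fold above the lowest, compared to 40.0% of 12673 genes at that level. The same 2 libraries thus hold the top of part of the list and the bottom of a smaller part. The shares at the bottom are under those of all tested genes, so the lower part is not read as a trait of the list.

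Among the transcription factors, ZEB1, a repressor of CDH1, differed most. Its normalized counts in CTRL were 1344 in mouse 17 and 1376 in mouse 44, but 229.5 in mouse 31 and 183 in mouse 70. They were 182, 102, 113, 159 and 139 in Chemo, 276, 420.1, 398, 198 and 289 in MC and 267, 212, 568 and 282 in Lean. In MC + Chemo the 6 libraries had lowest 70.8, median 191 and highest 339. All Chemo libraries lay below all CTRL libraries, though the gap between Chemo 19 and CTRL 70 was small, and the other groups overlapped CTRL. The edgeR log2 fold change against CTRL was -2.51 ± 0.531 for Chemo, -1.31 ± 0.513 for MC, -1.97 ± 0.491 for MC + Chemo and -1.25 ± 0.540 for Lean (± SE), with Benjamini-Hochberg adjusted p = 0.0430 in MC + Chemo and 0.0764 in Chemo.

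SNAI2 (SLUG), another repressor of CDH1, was at 214, 123, 387 and 150.1 in CTRL 17, 31, 44 and 70. Chemo libraries had 129, 70.5, 114, 89.5 and 134, MC libraries 215, 191, 169, 135 and 149 and Lean libraries 189, 91.5, 149.8 and 192, and MC + Chemo had lowest 76.3, median 139 and highest 189. Only CTRL 44 stood clear of the other groups. Its log2 fold change was -1.03 ± 0.306 in Chemo and -0.68 ± 0.290 in MC + Chemo, and neither passed. ZEB2, the relative of ZEB1, did not share its pattern, with 579.7, 606, 451 and 541 in the CTRL libraries and 194 to 814 over all libraries. SNAI1 (5.46 to 37.02) and TWIST1 (8.63 to 63.3) were near or under the level of 30 set for calls, so differences between their libraries rest on few reads.

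VIM encodes vimentin, the intermediate filament of mesenchymal cells, and differed widely within CTRL, with 71918 normalized counts in mouse 17 and 50209 in mouse 44 against 10488 in mouse 31 and 9838 in mouse 70. Chemo libraries had 9267, 4402, 7573, 6658 and 8228, and MC libraries 11545, 20820.4, 21956, 7769.5 and 8431. MC + Chemo had lowest 6272, median 10147 and highest 16147, and Lean had 14261, 8048, 24619 and 14254. Lean 24 was next after the pair of high CTRL libraries, and every Chemo library was below every CTRL library. Against CTRL, edgeR gave log2 fold changes of -2.31 ± 0.492 for Chemo, -1.34 ± 0.482 for MC, -1.78 ± 0.459 for MC + Chemo and -1.23 ± 0.511 for Lean, with adjusted p = 0.0481 (edgeR) in MC + Chemo and 0.0764 in Chemo. CTRL averaged 35613 ± 30696 (SD, n = 4) and MC + Chemo 10482 ± 3859.6 (n = 6), so the spread within CTRL was as wide as the difference between the means.

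The actin-linked members fell into separate patterns. MSN (moesin), which ties actin to the membrane, was at 12172, 5231, 11026 and 4648 in CTRL 17, 31, 44 and 70 and 3489 to 8422 outside CTRL. TPM1 (tropomyosin 1), which lies along actin filaments, was instead lower in CTRL 17 and CTRL 44 than in the other two, with 3053, 4421, 1852 and 4094. TAGLN (transgelin), an actin-binding protein of smooth muscle, was at 1001, 722, 324 and 927 in CTRL, 682, 326, 487, 359 and 763 in Chemo, 1209.7, 1237, 914, 934 and 1130.1 in MC and 2270.3, 645, 1164 and 1244 in Lean, with lowest 295, median 700.1 and highest 1071 in MC + Chemo. Its top value was in Lean 3 and its bottom value in MC + Chemo 52, and CTRL 17 and CTRL 44 lay on opposite sides of CTRL 31 and CTRL 70. Fold changes against CTRL on the log2 scale were -0.52 ± 0.341 for Chemo, 0.54 ± 0.344 for MC, -0.056 ± 0.328 for MC + Chemo and 0.84 ± 0.387 for Lean, none of them called. MYL9, a myosin light chain, ran from 353 to 1078 and was highest in CTRL 44.

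**Figure D2:**
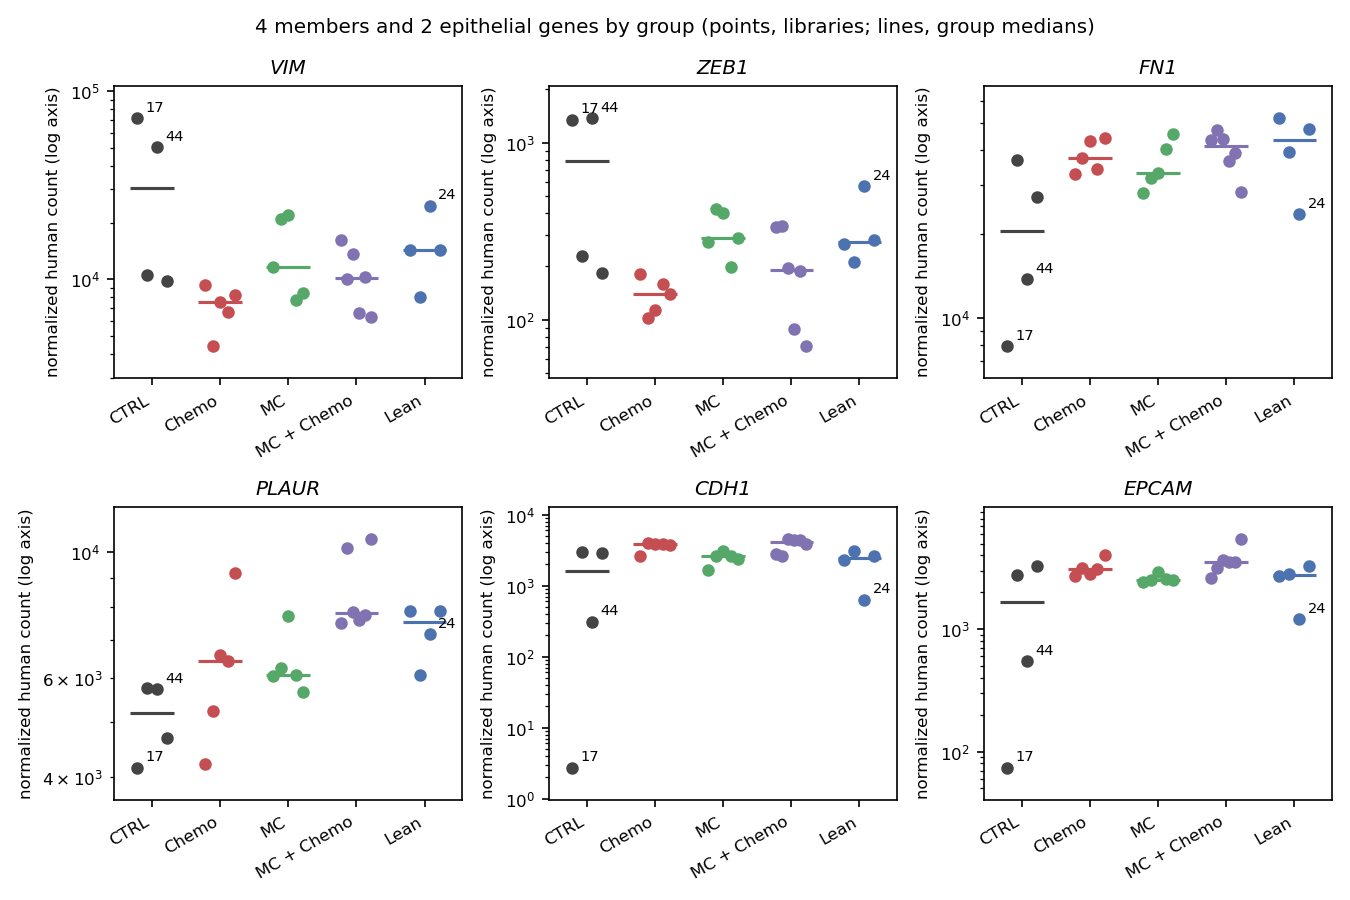
Normalized human counts (log axis) of 4 members and the epithelial genes CDH1 and EPCAM in each library, with group medians as lines. CTRL 17, CTRL 44 and Lean 24 are numbered. For VIM and ZEB1 the 2 numbered CTRL libraries lie above all others, for FN1, CDH1 and EPCAM they lie lowest, and for PLAUR all MC + Chemo libraries lie above all CTRL libraries.

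Genes of the matrix also split. FN1 (fibronectin), a matrix glycoprotein usually counted as mesenchymal, was lowest in CTRL 17 (7906) and CTRL 44 (13726), and was 36704 in CTRL 31 and 27120.4 in CTRL 70. It was 32759.6, 37451, 43263, 34332 and 44368 in Chemo, 27942, 31863, 33186, 40400.5 and 45535 in MC and 52146, 39475, 23608 and 47684 in Lean. MC + Chemo had lowest 28339.9, median 41321 and highest 47207. CTRL 17 and CTRL 44 were thus low for FN1 where they were high for VIM, and Lean 24 was the lowest library after the CTRL pair. The log2 fold change was 0.83 ± 0.298 for Chemo, 0.74 ± 0.297 for MC, 0.88 ± 0.290 for MC + Chemo and 0.93 ± 0.314 for Lean, with adjusted p of 0.0885 or more in edgeR.

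FBN1 (fibrillin 1), a microfibril protein, was at 1415, 1287, 719.9 and 1087 in CTRL, 506, 719.9, 632, 1254 and 773 in Chemo, 785, 878, 1133, 881 and 989.5 in MC and 1371, 1019, 684 and 1318 in Lean. MC + Chemo had lowest 90.3, median 724 and highest 1000.5, and the lowest was MC + Chemo 52, far under the rest of its group. Its log2 fold change was -0.87 ± 0.383 in MC + Chemo. SPARC, a collagen-binding matrix protein, ran only from 7127 to 20097 over 24 libraries, with 13535, 15007, 9267 and 10755 in CTRL.

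TGFBI, an adhesion protein induced by TGF-β, was at 2539, 2325, 1858 and 2004 in CTRL and 1945, 1415, 1399, 1649 and 1825 in Chemo. It was 3474, 3529, 2581, 2675 and 3893 in MC and 5004, 2234, 2770.2 and 2820.2 in Lean, and MC + Chemo had lowest 1455, median 2504 and highest 3624. All MC libraries were above all CTRL libraries, by a narrow margin between MC 42 and CTRL 17. Against CTRL, edgeR gave log2 fold changes of -0.42 ± 0.211 for Chemo, 0.56 ± 0.214 for MC, 0.16 ± 0.205 for MC + Chemo and 0.55 ± 0.249 for Lean, and none was called.

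LOX and LOXL2 encode enzymes that cross-link collagen. LOX was at 862, 175, 608 and 254 in CTRL 17, 31, 44 and 70 and 261, 76.1, 106, 138 and 351 in Chemo. MC had 434, 819, 263, 147 and 242, Lean had 603, 165, 306 and 361, and MC + Chemo had lowest 179, median 283 and highest 499. MC 41 was near CTRL 17 and Lean 3 near CTRL 44, both with the extra cleanup, and all groups overlapped. The log2 fold change was -1.35 ± 0.515 in Chemo and -0.69 ± 0.487 in MC + Chemo. LOXL2 was 1704, 886, 1060.0 and 891 in CTRL, above all Chemo libraries (781, 528, 628, 649 and 709) and all Lean libraries (802, 649, 606 and 689.7). The log2 fold change of LOXL2 was -0.80 ± 0.247 in Chemo and -0.73 ± 0.249 in Lean, and neither was called.

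CDH2 encodes N-cadherin, the cadherin that often replaces E-cadherin in mesenchymal cells, yet its lowest libraries were CTRL 17 and CTRL 44, where CDH1 was lowest too. It was at 29.2, 37.9, 35.4 and 132 in CTRL 17, 31, 44 and 70, so CTRL 31 was low as well and CTRL 70 stood apart. Chemo had 194, 57.1, 78.02, 111 and 199, MC 107, 220.1, 87.4, 91.8 and 68.2 and Lean 62.03, 64.7, 83.5 and 79.9, and MC + Chemo had lowest 97.04, median 133 and highest 242. Its log2 fold change was 1.10 ± 0.474 for Chemo, 0.94 ± 0.474 for MC, 1.33 ± 0.463 for MC + Chemo and 0.28 ± 0.468 for Lean, with adjusted p = 0.102 (edgeR) in MC + Chemo. CDH11, a cadherin of mesenchymal tissue, ran from 181 to 1328, with CTRL 44 highest and MC + Chemo 52 lowest.

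The TGF-β ligands on the list went opposite ways within CTRL. TGFB2 was at 1090.0, 2769, 556 and 2664 in CTRL 17, 31, 44 and 70, and TGFB1 at 243, 85.5, 300.4 and 60.3. TGFB2 had 2555, 3409, 3319, 2920.1 and 1582 in Chemo, 1568, 2574, 2811, 2894 and 2889 in MC and 2489.8, 2826, 934 and 2259.6 in Lean, with lowest 1585, median 2861 and highest 3055 in MC + Chemo. CTRL 44, Lean 24 and CTRL 17 were the lowest 3 libraries for TGFB2, whereas TGFB1 was highest in Lean 24 (398), CTRL 44 and CTRL 17. The log2 fold change of TGFB2 was 0.63 ± 0.349 for Chemo, 0.52 ± 0.348 for MC, 0.54 ± 0.337 for MC + Chemo and 0.26 ± 0.375 for Lean. TGFBR2, the receptor that binds these ligands, ran only from 1116 to 2255. WNT5A, a ligand of non-canonical WNT signaling, was at 5.38 to 57.3, with a mean under 30.

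PLAUR, the receptor that gathers urokinase at the cell surface, had all MC + Chemo libraries above CTRL, as NNMT did. It was at 4158, 5751, 5729 and 4684 in CTRL, 4225, 5243, 6592, 6419 and 9178 in Chemo, 6047, 6246, 7721, 6072 and 5666 in MC and 7882, 6068, 7170.3 and 7880.4 in Lean. MC + Chemo had lowest 7506, median 7799 and highest 10539. Every MC + Chemo library and every Lean library was above every CTRL library, and here CTRL 17 and CTRL 44 were not a pair apart. Fold changes against CTRL on the log2 scale were 0.30 ± 0.184 for Chemo, 0.31 ± 0.184 for MC, 0.74 ± 0.180 for MC + Chemo and 0.51 ± 0.187 for Lean, with adjusted p = 0.0415 (edgeR) in MC + Chemo and 0.685 in Lean. MC + Chemo was also above Chemo by 0.43 ± 0.166 and above MC by 0.42 ± 0.166, neither called. Its ligand PLAU (urokinase) ran from 914 to 8957, lowest in Chemo 19 and highest in Lean 24, with 2571, 2648, 7438 and 4976 in CTRL.

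SERPINE2, an inhibitor of urokinase and thrombin, was at 462, 212, 1996 and 328 in CTRL 17, 31, 44 and 70. Chemo had 245, 106, 145, 184 and 309, MC 468, 313, 296, 210.3 and 292 and Lean 324, 178, 1097 and 515, and MC + Chemo had lowest 33.02, median 219.9 and highest 635. CTRL 44 and Lean 24 were the highest 2 libraries, CTRL 17 was within the range of the rest, and MC + Chemo 52 was lowest. The log2 fold change was -1.93 ± 0.629 for Chemo, -1.26 ± 0.619 for MC, -1.53 ± 0.589 for MC + Chemo and -0.52 ± 0.673 for Lean, none of them called.

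Of the surface proteins, AXL, a receptor tyrosine kinase, was at 5154, 1644, 4805 and 1885 in CTRL 17, 31, 44 and 70 and at most 2907 elsewhere. CD44, the hyaluronan receptor, was the steadiest member with 3783 to 5652. CAV1 and CAV2 form caveolae. CAV1 was 5711, 3524, 7954 and 3590.4 in CTRL and 7934 in Lean 24, and CAV2 ran from 947 to 1721. THY1, a surface glycoprotein of fibroblasts, was at 53.5 to 231, highest in Lean 3 and lowest in CTRL 44. EMP3, a membrane protein, was at 1200.3, 618, 1732 and 652 in CTRL and 1306 in Lean 24.

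AKAP12, which anchors protein kinase A, had the widest range of group means on the log2 scale. It was at 3399.6, 577, 2111 and 753 in CTRL and 501, 157, 176, 205 and 570.1 in Chemo. MC had 1606, 1424, 1859, 627 and 804, Lean had 776, 405, 3056 and 911, and MC + Chemo had lowest 146, median 539 and highest 2341. All Chemo libraries were below all CTRL libraries, with Chemo 67 just under CTRL 31, and Lean 24 was near CTRL 17. Against CTRL, edgeR gave log2 fold changes of -2.42 ± 0.658 for Chemo, -0.44 ± 0.637 for MC, -0.98 ± 0.607 for MC + Chemo and -0.41 ± 0.708 for Lean, with adjusted p = 0.0948 (edgeR) in Chemo.

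GNG11, a γ subunit of heterotrimeric G proteins, was at 125, 96.4, 243 and 118 in CTRL 17, 31, 44 and 70. Chemo had 58.1, 58.2, 68.97, 90.7 and 65.7, MC 89.3, 76.5, 101, 67.02 and 83.3 and Lean 78.3, 66.9, 181 and 90.98, and MC + Chemo had lowest 46.3, median 75.5 and highest 103. Chemo lay below CTRL with no overlap, and MC + Chemo reached past CTRL 31 in 1 library only, MC + Chemo 5. Fold changes against CTRL on the log2 scale were -1.11 ± 0.257 for Chemo, -0.81 ± 0.256 for MC, -0.996 ± 0.244 for MC + Chemo and -0.49 ± 0.306 for Lean, with adjusted p = 0.0415 (edgeR) in MC + Chemo and 0.0764 in Chemo. NNMT, which methylates nicotinamide, was at 973, 819, 326 and 747 in CTRL and 984 to 1566 in MC + Chemo, without overlap and with a log2 fold change of 0.72 ± 0.214 that was not called. QKI, an RNA-binding protein that steers splicing, ran from 1449 to 3269.

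Across the fit to all genes, few members were called. A call needed an edgeR adjusted p under 0.05, a mean normalized count above 30 and a fold above 1.5. In MC + Chemo against CTRL, 4 of 35 members were called (11.4%, against 1.60% of 16434 genes). VIM, ZEB1 and GNG11 were lower and PLAUR was higher. No member was called when 1 of CTRL 17, CTRL 44 or MC + Chemo 43, 47, 50 or 52 was left out, or when the 2 groups were fitted alone. Leaving out CTRL 31 gave 8 called members and leaving out CTRL 70 gave 7, with no share of all genes given for either. At an unadjusted p under 0.05 there were 13 (37.1%, against 22.7% of all genes), 5 higher and 8 lower, and DESeq2 called 7 (20%, against 4.21% of 18880 genes), which were VIM, ZEB1 and GNG11 lower and CDH2, FN1, NNMT and PLAUR higher. The median log2 fold change of the members was -0.21, against -0.02 over all genes. Groups did not overlap for NNMT and PLAUR, both higher (5.71%, against 5.26% of all genes).

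In Chemo against CTRL edgeR called 0 of 35 members (0%, as over all genes). It called 12 without CTRL 31 and 9 without CTRL 70, with no share of all genes given for either. At an unadjusted p under 0.05 there were 16 (45.7%, against 18.2%), 3 higher and 13 lower. DESeq2 called 7 (20%, against 2.44%), all lower: AKAP12, EMP3, GNG11, MSN, SNAI2, VIM and ZEB1. The median was -0.44, against -0.02, and 22 of 35 members had a negative value. AKAP12, GNG11, LOXL2, VIM and ZEB1 lay below CTRL without overlap (14.3%, against 3.24% of all genes).

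For MC, 0 members were called by edgeR (0%) or DESeq2 (0.0583% of all genes), with 8 at an unadjusted p under 0.05 (22.9%, against 10.7%), 4 in each direction, and a median of -0.06. Only TGFBI did not overlap, where 1.47% of all genes did not. For Lean, 0 were called by edgeR (0%) or DESeq2 (0.0053%), with 11 at an unadjusted p under 0.05 (31.4%, against 7.08%), 7 higher and 4 lower, and a median of 0.03. LOXL2 and PLAUR did not overlap, against 2.21% of all genes. All 4 comparisons share the CTRL libraries.

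Treated groups were also set against each other. MC + Chemo against Chemo gave 0 calls by edgeR (0%) and DESeq2 (0.0371%), and 6 at an unadjusted p under 0.05 (17.1%, against 10.4%), which were AKAP12, MYL9, NNMT, PLAUR, TGFBI and ZEB2, with a median of 0.21. MC + Chemo against MC gave 0 calls by edgeR (0%) and DESeq2 (0.0265%), and 3 at an unadjusted p under 0.05, PLAUR, TGFBI and TGFBR2 (8.57%, against 7.95%), with a median of -0.18. The interaction of MC and Chemo gave 0 calls by edgeR (0%) and DESeq2 (0.0053%), and 6 at an unadjusted p under 0.05 (17.1%, against 9.74%). It contains CTRL, and the 6 were AKAP12, EMP3, GNG11, THY1, VIM and ZEB1.

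Many of these fold changes rested on CTRL 17 and CTRL 44. The sign changed without both for 4 of 35 members in the comparison of Chemo with CTRL, 15 in that of MC, 14 in that of MC + Chemo and 18 in that of Lean. The share of all genes that changed sign is not given, so these counts are not read as a trait of the members. Without CTRL 17 and CTRL 44, a setting chosen after their values were seen, edgeR called 0 members in every comparison with CTRL, as over all genes (0%). At an unadjusted p under 0.05 there were 2 for Chemo (5.71%, against 3.31% of all genes), 3 for MC (8.57%, against 5.02%), 5 for MC + Chemo (14.3%, against 11.8%) and 3 for Lean (8.57%, against 4.76%). GNG11, NNMT, PLAUR, TGFB1 and TGFBR2 were the 5. In MC + Chemo the log2 fold change of VIM went from -1.78 to 0.031, that of ZEB1 from -1.97 to -0.038 and that of GNG11 from -0.996 to -0.55. PLAUR hardly moved, from 0.74 to 0.70, but with 2 CTRL libraries its adjusted p was 0.269 (edgeR). In Chemo, VIM went from -2.31 to -0.50, ZEB1 from -2.51 to -0.58 and AKAP12 from -2.42 to -1.05. The member median became -0.089 for Chemo, 0.21 for MC, 0.031 for MC + Chemo, where VIM is the median member, and 0.38 for Lean. Epithelial genes moved with the same libraries. Their median log2 fold change, 1.03 for Chemo, 0.72 for MC, 1.03 for MC + Chemo and 0.56 for Lean, became 0.26, -0.0099, 0.29 and -0.22.

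**Figure D3:**
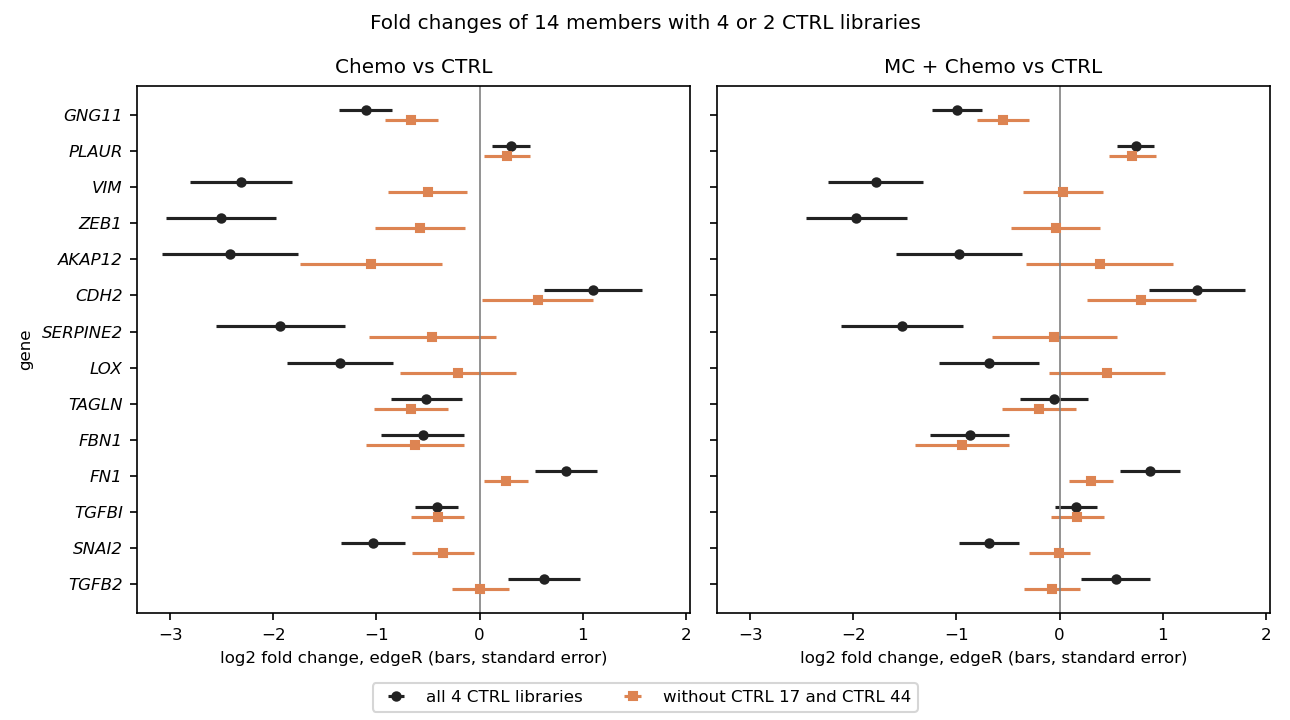
edgeR log2 fold changes (points) with standard errors (bars) of 14 members in Chemo and MC + Chemo against CTRL, with all 4 CTRL libraries (black) and without CTRL 17 and CTRL 44 (orange). VIM in MC + Chemo moves from -1.78 to 0.031 and ZEB1 from -1.97 to -0.038, while PLAUR stays near 0.7.

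A score, taken as the average log2 level (normalized count plus 1) of the 33 members above 30, hid the split. It was 10.3, 9.87, 10.3 and 9.92 in CTRL 17, 31, 44 and 70. By group it averaged 10.1 ± 0.226 for CTRL (SD, n = 4) and 9.72 ± 0.20 for Chemo (n = 5). It was 10.1 ± 0.171 for MC (n = 5), 9.92 ± 0.324 for MC + Chemo (n = 6) and 10.2 ± 0.266 for Lean (n = 4). Chemo 30 and MC + Chemo 52 had the lowest scores, 9.394 and 9.401, and Lean 24 the highest, 10.4. Chemo 30 held the lowest value of 24 for 7 of 35 members, where 3.81% of tested genes were lowest there, and MC + Chemo 52 for 9, where 13.6% were.

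Other human genes of the field were read from lists outside the members. Of 30 epithelial genes, edgeR called 1 in MC + Chemo (1.60% of all genes) and 0 against CTRL elsewhere (0%). The called gene was CLDN7 (ENSG00000181885), a tight junction claudin, higher by 1.30 ± 0.318 with adjusted p = 0.0415. MC + Chemo and Chemo each had 13 epithelial genes at an unadjusted p under 0.05 (22.7% and 18.2% of all genes). Lean had 4 (7.08%) and MC had 6 (10.7%). DESeq2 called 8 higher in MC + Chemo (4.21% of all genes, either direction) and 4 in Chemo (2.44%). CDH1 and EPCAM were not called, with log2 fold changes of 1.27 ± 0.732 and 1.11 ± 0.544 in MC + Chemo and 1.21 ± 0.751 and 0.91 ± 0.556 in Chemo. Of 29 TGF-β pathway genes edgeR called 0 in each comparison with CTRL. At an unadjusted p under 0.05 there were 9 for Chemo, 5 for MC, 8 for MC + Chemo and 7 for Lean, and DESeq2 called 2 lower in Chemo and 2 in MC + Chemo. Of 33 further mesenchymal genes edgeR called 0, with 6, 2, 4 and 4 at an unadjusted p under 0.05, and DESeq2 called 1 lower in Chemo and 1 higher in MC + Chemo. The shares of all genes printed beside the epithelial counts are the background for both of these lists too. In MC + Chemo the 4 of 33 are a smaller share than the 22.7% of all genes, and so are the 2 in MC (10.7%). The 6 in Chemo are near the share of all genes (18.2%), and the 4 in Lean are above it (7.08%). The TGF-β counts are larger shares than those of all genes in each comparison with CTRL. These lists too were chosen with earlier results known, so the shares are descriptions.

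The murine table gives the same-named genes of the host, which the rule for members does not name. Murine counts of genes with an even ratio between species, given further on, are not shown to be independent of the human counts. All 36 same-named genes had a row in the murine table, Twist2 included, at 23.1 to 185 normalized murine counts. edgeR called 0 of 36 in each of 6 comparisons (0% of all murine genes in each). At an unadjusted p under 0.05 there were 3 in Chemo (8.33%, against 4.53% of all genes), 4 in MC (11.1%, against 11.8%), 5 in MC + Chemo (13.9%, against 12.4%) and 2 in Lean (5.56%, against 3.11%). There was 1 in MC + Chemo against Chemo (2.78%, against 11.0%) and 3 in MC + Chemo against MC (8.33%, against 9.87%). DESeq2 called Vim in Chemo (0.0840% of all genes) and Zeb1 in MC + Chemo (0.708%), both lower, and 0 in MC (1.36%), Lean (0.006%), MC + Chemo against Chemo (0.126%) and MC + Chemo against MC (0.048%).

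Murine Vim was at 24348, 10913, 25886 and 11459 in CTRL 17, 31, 44 and 70, so the same 2 libraries were high as for human VIM, with 7923 to 15166 in all others. Its log2 fold change was -0.97 ± 0.230 for Chemo, -0.65 ± 0.230 for MC, -0.63 ± 0.220 for MC + Chemo and -0.57 ± 0.232 for Lean, with edgeR adjusted p of 0.269 or more, and -0.29 in Chemo without CTRL 17 and CTRL 44. Whether reads of human VIM add to the murine Vim counts was not tested. Zeb1 was at 613, 473, 832 and 422 in CTRL, with a log2 fold change of -0.79 ± 0.189 in MC + Chemo. Msn was at 6013, 3523, 9598 and 2913, again with both libraries above CTRL 31 and CTRL 70. Fn1 was at 5772, 8134, 7567 and 8551, lowest of these in CTRL 17 as in the human counts, and Sparc at 24671, 21947, 17345 and 22208. Serpine2 parted from its human counterpart, with 833, 4985, 3840.4 and 4537, lowest of all libraries in CTRL 17. Tpm1 was highest in MC + Chemo 43 (7660.3), the library with the highest summed level of 5 skeletal muscle markers (46198, against 57.8 to 91.0 in CTRL).

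Murine marker lists gave the host cells in each library. The summed level of 10 fibroblast markers was 65957 to 163026 in CTRL, lowest in CTRL 44 and highest in CTRL 17, and 54467 to 124603 in MC + Chemo. Pericyte and smooth muscle markers (7 genes) were at 2323 in CTRL 17 and 2394 in MC + Chemo 52, and at most 10986 elsewhere. Endothelial markers (5 genes) were at 438 and 579 in these libraries, against 1879 to 2490 in Chemo. Macrophage markers (5 genes) were at 13999 to 14648 in CTRL. Adipocyte markers (4 genes) ran from 22.1 to 834 in CTRL and reached 12359 in MC 41, and keratinocyte markers (3 genes) ran from 309 to 725 in CTRL. edgeR called 0 genes of any of these 7 lists in a comparison with CTRL. The 5 skeletal muscle genes had an unadjusted p under 0.05 in MC and MC + Chemo (11.8% and 12.4% of all murine genes), higher than CTRL. DESeq2 called all 5 in both (1.36% and 0.708% of all murine genes). Their summed level differed widely within these groups. It had lowest 55.7, median 122 and highest 29588 (MC 41) in MC. In MC + Chemo it had lowest 50.2, median 975 and highest 46198 (MC + Chemo 43). The part of the host cells in the values of the members was not tested.

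Many members had like numbers of reads in both species' tables. The ratio of the raw human to the raw murine count, each plus 0.5, was most even for QKI, at 1.09 to 1.31 over 24 libraries. It was 0.51 to 0.69 for ZEB2, 0.43 to 0.79 for SPARC, 1.63 to 2.85 for CAV1 and 1.11 to 2.13 for MSN. These 5 of the 32 members with a mean above 30 in both tables (15.6%) varied less than 2-fold, as did 16.6% of 8500 genes of shared name, while the human share of counts went from 47.8% to 74.0%. For VIM the ratio was 0.50 to 3.11, highest in CTRL 17, and for ZEB1 0.23 to 2.45, highest in CTRL 44. PLAUR counts were almost all human, with a ratio of 48.6 to 513. SERPINE2 counts were mostly murine, at 0.02 to 0.77. How reads that match both genomes were assigned is not given in the sources used here, so a human count of an even-ratio gene cannot be told apart from host transcript.

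**Figure D4:**
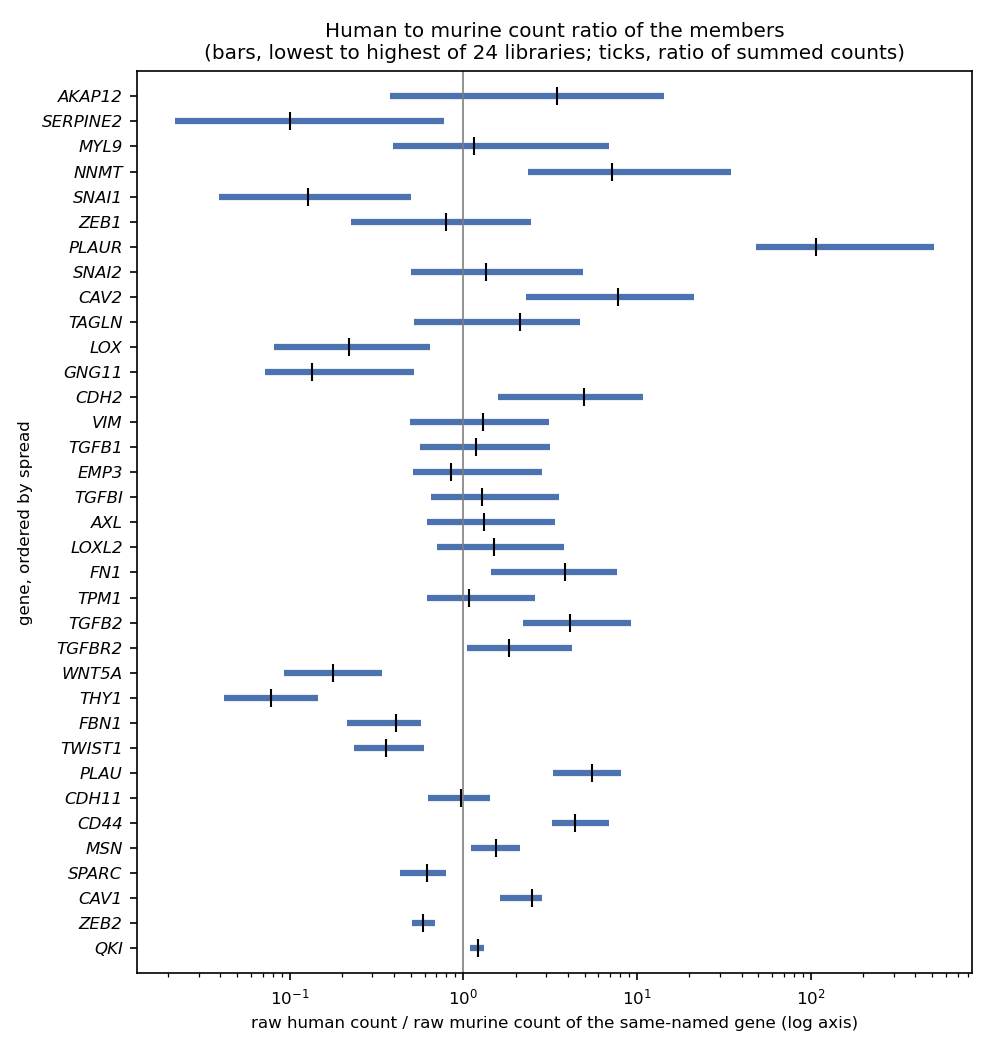
Ratio of the raw human to the raw murine count of the same-named gene (log axis) for 35 members, ordered by spread. Bars run from the lowest to the highest of 24 libraries and ticks mark the ratio of summed counts. QKI, ZEB2, CAV1, SPARC and MSN have the shortest bars, and PLAUR lies far to the right at 48.6 to 513.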

How the data were processed

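QuantSeq 3′ libraries of 24 tumors were read as short forward reads and counted by the authors with the BlueBee software. The deposited counts, 1 table per species, are whole reads per gene, and the deposited normalized signal tables hold these counts divided by DESeq2 size factors over all libraries. No gene sum was under 72. The submitters' processing notes name DESeq2 1.22.2 and GRCm38. The human build is not given in the sources used here, so no coordinates or sequences are printed. A 3′ read count is not divided by length, and levels are compared between libraries, not genes.

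Groups follow the labels. Counts were tested with edgeR 4.0.16 (quasi-likelihood F test, two-sided, TMM, filterByExpr, Benjamini-Hochberg over all genes tested) in R 4.3.3, on 20 libraries of 4 groups, or all 24 for Lean. DESeq2 1.42.0 was an alternative. The fit was run on simulated counts with a single spread setting for all genes and no outlying libraries. That setting does not cover the spread seen within CTRL. SE of a log2 value is its size divided by the root of F. Normalized counts printed are the authors' scale. Depth limits precision for members under 30 counts. Members and lists were chosen with earlier results of these data known. Called members were given in full, filled to 14 by the range of the log2 group means. Murine genes given are called ones and the 6 of highest mean, and Zeb1, Twist2, and human members given beyond the 14 were named to account for the whole list. Other lists are represented by genes called, with CDH1 and EPCAM.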

Additional observations from a re-analysis of the deposited data

Results flagged for a closer look

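Within each group of 4 to 6 libraries, the highest or lowest library was compared with its nearest neighbor by Dixon's criterion, over 190 sets of values. This marked 13, and chance marks about 1 set in 20. Why they stand apart was not tested.

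In CTRL, CDH2 was 131.9 in CTRL 70 against 29.2 to 37.9 in the rest, SERPINE2 was 1996 in CTRL 44 against 212 to 462, and THY1 was 134 in CTRL 31 against 53.5 to 62.9. THY1 also stood out in Lean 3, at 231 against 100.4 to 118 in Lean.

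In Chemo, TWIST1 was 63.3 in Chemo 33 (24.6 to 33.6 in the rest), EMP3 was 463.5 in Chemo 30 (627 to 660.3) and CDH1 was 2635 in Chemo 19 (3688 to 3929).

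In MC, MC 41 was high for CDH2, at 220.1 against 68.2 to 107, and for QKI, at 3269 against 1875 to 2272. TGFB2 was 1568 in MC 6 against 2574 to 2894, and PLAUR was 7721 in MC 42 against 5666 to 6246. MC 41 and MC 42 are both libraries with the extra RNA cleanup.

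In MC + Chemo, CDH11 was 181 in MC + Chemo 52 against 616 to 763, and TGFB1 was 171 in MC + Chemo 25 against 88.6 to 114.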

How the results depend on the processing

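The 4 calls in MC + Chemo against CTRL depended on the processing. DESeq2 gave 7 members, the fit to the 2 groups alone 0, the fit without the 3 libraries of the extra cleanup 0, and the fit without CTRL 17 and CTRL 44 0. The 3 libraries of the extra cleanup are in MC and Lean. They bear on this comparison only through the filter, normalization and spread shared in the fit. Leaving out single libraries gave 0 to 8. It was 0 without CTRL 17, CTRL 44, or MC + Chemo 43, 47, 50 or 52, 1 without MC + Chemo 5, 2 without MC + Chemo 25, 7 without CTRL 70 and 8 without CTRL 31. In Chemo against CTRL, DESeq2 gave 7 and leaving out single libraries 0 to 12, with 12 without CTRL 31 and 9 without CTRL 70. With CTRL reduced in that way, CTRL 17 and CTRL 44 are 2 of the 3 controls. No share of all genes is given for fits without single libraries, so these counts are not read as a trait of the list. Murine namesakes called by DESeq2 numbered 1 in Chemo and 1 in MC + Chemo. The member median without CTRL 17 and CTRL 44, an alternative chosen after seeing the data, was -0.089 for Chemo, 0.21 for MC, 0.031 for MC + Chemo and 0.38 for Lean. Lean 24 was kept there, so the Lean value is lopsided. Leaving out single libraries gave -0.55 to -0.20 for Chemo, the latter without CTRL 44. Without these 2 libraries the log2 fold change in MC + Chemo against CTRL changed sign for 14 of 35 members, with no share of all genes given. They included, among those given in full, VIM (0.031), AKAP12 (0.39), LOX (0.46) and TGFB2 (-0.074). TAGLN there ran from -0.27 to 0.11 when single libraries were left out. DESeq2 size factors, no filter on low counts and MC + Chemo 5 taken as MC changed no count by more than 1.5 times. Of all such counts and medians, 299 stayed within their limit and 24 did not. No paired analysis was possible because the groups share no mouse numbers.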
